A study of Homo sapiens with 6 samples.

Results

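Most of the 9 genes described here move copper across membranes of human cells or carry it through the cytosol. The others are SOD1, an enzyme that receives copper, CUTC, which binds it, and COMMD1, which takes part in sorting of the copper pumps. All 9 were chosen by name from the deposited count table, which has 25987 genes with a symbol. The rule uses names and no measured value, though it was written with earlier results of these data known. The cells were 786-O, a cell line from a human clear cell kidney cancer that is labelled wild type and is known to lack functional VHL. In 3 cultures the cells had been kept in copper, and the 3 control cultures received serum prepared alike but with no copper added. The study asked how long-term copper alters expression in this carcinoma. The series text gives 30 uM copper, while copper replicates 1, 2 and 3 are labelled 30, 31 and 32 uM, and they were treated as 1 group. The copper was copper sulfate bound to serum proteins in the cold. All cultures grew in DMEM/F12 with 10% serum, and the length of exposure is not given in the sources used here. Both groups are a single tumour line, and the labels do not say whether the cultures were grown separately, so p-values measure only the spread between these 6 samples, which may be technical.

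Copper is both a cofactor and a toxin, and cells keep almost none of it free. SLC31A1 (CTR1) takes up reduced copper at the plasma membrane. Inside, metallochaperones hand it on: ATOX1 to the copper ATPases ATP7A and ATP7B, and CCS to the superoxide dismutase SOD1. The ATPases load copper enzymes in the secretory pathway and leave the Golgi to export copper when it is in excess, so much of their control is known to lie in protein traffic rather than in transcription. Metallothioneins, which bind surplus copper and zinc, are by contrast induced at their promoters through the factor MTF1 and its metal response elements.

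Promoter sequences are shown for 3 members and 1 metallothionein. The 4 windows below hold the 250 bases before a RefSeq start (GRCh38.p14), 5′ to 3′ on the strand of the gene. Capitals mark metal response elements in MT2A and ATOX1 and GC boxes, the motif that SP1 binds, in SLC31A1. MT2A is given as the metallothionein with the smallest p for copper without the replicate block. CUTC has neither motif and no capitals, and is given as the member with the smallest p for copper.
MT2A (chr16:56608334-56608583, plus strand): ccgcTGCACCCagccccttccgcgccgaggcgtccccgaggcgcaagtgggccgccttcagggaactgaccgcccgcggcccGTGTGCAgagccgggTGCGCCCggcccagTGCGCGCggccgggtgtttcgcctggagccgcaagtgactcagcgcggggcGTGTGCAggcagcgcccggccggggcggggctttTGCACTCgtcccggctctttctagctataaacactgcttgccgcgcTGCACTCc
ATOX1 (chr5:151758632-151758881, minus strand): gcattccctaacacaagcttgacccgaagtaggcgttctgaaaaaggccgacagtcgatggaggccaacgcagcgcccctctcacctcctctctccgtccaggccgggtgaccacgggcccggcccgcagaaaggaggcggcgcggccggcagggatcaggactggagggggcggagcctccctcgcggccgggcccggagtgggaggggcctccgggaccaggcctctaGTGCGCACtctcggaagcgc
SLC31A1 (chr9:113221294-113221543, plus strand): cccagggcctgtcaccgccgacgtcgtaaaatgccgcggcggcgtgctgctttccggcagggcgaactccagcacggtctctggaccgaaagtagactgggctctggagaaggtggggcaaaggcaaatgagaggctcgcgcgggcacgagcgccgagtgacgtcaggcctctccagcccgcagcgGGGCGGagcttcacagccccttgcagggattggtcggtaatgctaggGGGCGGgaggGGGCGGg
CUTC (chr10:99731984-99732233, plus strand): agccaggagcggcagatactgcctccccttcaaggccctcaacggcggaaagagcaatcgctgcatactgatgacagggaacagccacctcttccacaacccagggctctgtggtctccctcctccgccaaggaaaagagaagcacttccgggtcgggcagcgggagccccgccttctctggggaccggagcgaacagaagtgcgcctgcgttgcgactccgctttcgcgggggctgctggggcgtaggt

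The metal response element was searched as TGCACNC or TGCGCNC on both strands, counting overlapping matches. Of the 12 metallothioneins, 5 had a window, and MT1E had none. The element occurred 7 times before MT2A, 4 times before MT1X and 3 times each before MT1B and MT4. Of the 7 members with a window, ATOX1, CCS and ATP7B had 2 matches each and COMMD1 had 1. The ATP7B window begins from a RefSeq start 558 bases from the deposited one, and those of ATP7A and COMMD1 lie 37 and 25 bases from theirs. The pair in ATOX1 is 1 palindrome read on both strands. SLC31A1, ATP7A and CUTC had 0 matches. Of all 35116 windows of this length, 24.8% held at least 1 match and 6.48% at least 2. The GC box GGGCGG, present in 42.6% of windows, occurred 3 times in SLC31A1 and in ATP7B, and 1 time in ATOX1. The antioxidant response element TGACNNNGC, present in 10.9% of windows, occurred 1 time in CCS and in no other member window. A match is a string of letters and not a measured site. MT1H, with 8 metal response matches, and MT1B, with 3, had 0 counts in all 6 libraries, and MT4, with 3, had at most 2 counts.

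With 1 library per culture, the copper libraries totalled between 16301772 and 18189469 counts and the controls between 19219090 and 25079913. Values are given as CPM, the usual unit for counts scaled to the size of the library, here the size corrected by its TMM factor. Of the markers of a renal carcinoma line, PAX8, a renal lineage factor, was at 123 to 147 CPM in all libraries, and PAX2 at 5.63 to 9.01 CPM. The 9 markers summed to 5433 to 7265 CPM in copper and 5941 to 6693 CPM in control. Of this sum, VIM alone made up 2763 to 3788 CPM. The summed markers of leukocytes and of endothelium stayed at or below 0.280 CPM, and those of hepatocytes at or below 0.681 CPM. Fibroblast markers summed to 5.91 to 8.47 CPM in copper and 6.39 to 11.96 CPM in control, nearly all of it COL1A1 and LUM, with DCN at or below 0.244 CPM. Replicate 3 stood apart in both groups, on a first principal component that carried 57.9% of the variance. The tested members are therefore also given without it, while the pathway lists are not. Over all 12944 genes that passed the filter on low counts, edgeR's quasi-likelihood test called 0 genes at a threshold of 0.05 on adjusted p (0% of those tested), and 455 had an unadjusted p below that threshold (3.52%). With the replicate number as a block it called 22 (0.17%), and 1088 had an unadjusted p below the threshold (8.41%). DESeq2 called 27 (0.209%), and edgeR in replicates 1 and 2 alone called 111 (0.856%).

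Of the 9 members, 8 passed the filter, 0 of the 8 were called in either fit, and 5 had a positive and 3 a negative log2 fold change in copper. Their median was 0.05, against 0.01 over all 12944 genes tested, of which 6657 had a positive value. CUTC was the only one with an unadjusted p under 0.05, in the fits with and without the block. Without the block, the widest 95% intervals were those of CCS, from 0.707-fold to 1.56-fold, and of ATP7A, from 0.540-fold to 1.06-fold. The member that failed the filter was SLC31A2, which had 2 to 8 counts per library.

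Per kilobase of transcript, SOD1 was the most abundant member, at 377 ± 25.1 CPM per kilobase in control (SD, n = 3). ATOX1 followed at 44.4 ± 1.07, and then SLC31A1 at 28.1 ± 1.80 and CUTC at 24.7 ± 2.37 CPM per kilobase. SLC31A1 and CUTC overlapped in their control values. CCS at 12.9 ± 2.45 and COMMD1 at 12.7 ± 1.65 CPM per kilobase could not be ordered. ATP7B, at 4.26 ± 0.397, lay above ATP7A, at 2.46 ± 0.234 CPM per kilobase, with no overlap, and SLC31A2 came last at 0.163 ± 0.0724. In copper, by mean, CUTC at 31.0 ± 2.82 stood before SLC31A1 at 26.2 ± 2.40 CPM per kilobase, again with overlap, and the order of the other members was the same. Lengths are those of 1 GENCODE 29 transcript per gene, so the order of close neighbours rests on that choice.

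**Figure D1:**
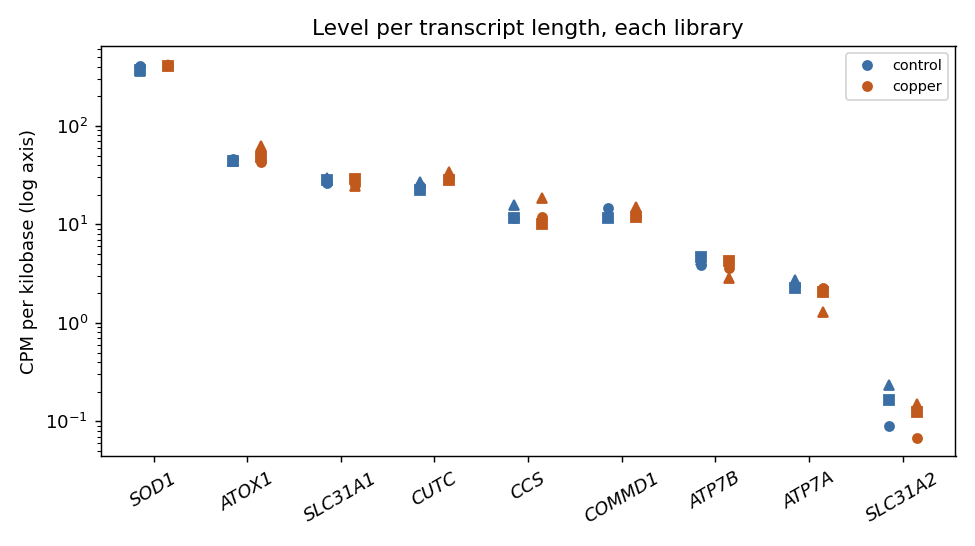
Level of each member in each library, as CPM per kilobase of transcript on a log axis, with control in blue, copper in orange and circles, squares and triangles for replicates 1, 2 and 3. SOD1 lies highest and SLC31A2 lowest in both groups, and SLC31A1 overlaps CUTC as CCS overlaps COMMD1.

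SLC31A1, the high-affinity importer (Entrez 1317; chromosome 9, 113221544 to 113264492, plus strand), was at 120, 137 and 116 CPM in copper replicates 1, 2 and 3. It was at 124, 134 and 141 CPM in the controls. The groups overlapped, and copper replicate 2 exceeded all but control replicate 3. The log2 fold change was -0.10 (SE 0.10, 95% interval -0.34 to 0.14, adjusted p 1.00 by edgeR), so a fall below 0.788-fold or a rise above 1.10-fold lay outside the interval. Within replicate numbers 1, 2 and 3 the log2 ratio was -0.05, 0.03 and -0.29. In replicates 1 and 2 alone the log2 fold change was -0.0074.

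SLC31A2 (CTR2; Entrez 1318; chromosome 9, 113151007 to 113164140, plus strand) is the related low-affinity copper transporter of internal membranes. It had 2, 4 and 5 counts in copper and 4, 6 and 8 in control. The sum was 11 in copper, with an exact 95% Poisson interval of 5.49 to 19.7, and 18 in control, with one of 10.7 to 28.4. These intervals overlap, but they cover counting error only and are not scaled to library size, which was larger in control. Scaled, the means were 0.205 ± 0.0757 CPM in copper and 0.291 ± 0.129 CPM in control (SD, n = 3). In the fit with no filter the log2 fold change was -0.33 (unadjusted p 0.455 by edgeR), so no difference was detectable at this depth. SLC31A2 overlaps FKBP15 on the opposite strand, which had 1188 to 1699 counts, and the authors' use of strand is not given in the sources used here, so the few SLC31A2 counts cannot be told apart from reads of FKBP15.

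ATOX1, the chaperone that docks with the copper ATPases (Entrez 475; chromosome 5, 151742822 to 151758631, minus strand), was at 32.1, 36.0 and 46.8 CPM in copper. The controls were at 34.2, 33.0 and 32.6 CPM. Copper replicate 3 stood above all other libraries, while copper replicate 1 lay below all of the controls. The log2 fold change was 0.20 (SE 0.15, interval -0.14 to 0.54, adjusted p 1.00 by edgeR). The log2 ratios within replicates 1, 2 and 3 were -0.09, 0.12 and 0.52, and in replicates 1 and 2 alone the log2 fold change was 0.02.

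CCS (Entrez 9973; chromosome 11, 66593185 to 66606019, plus strand) loads copper into SOD1. It was at 17.0, 14.4 and 26.7 CPM in copper and at 16.4, 16.5 and 22.5 CPM in control, and replicate 3 was the highest in both groups. Between copper and control the log2 fold change was 0.07 (SE 0.24, interval -0.50 to 0.64). Its sign was negative without copper replicate 3 (-0.23), without control replicate 1 (-0.01), without control replicate 2 (-0.0040), and in replicates 1 and 2 alone (-0.07). Between replicate numbers, with group as a term, CCS was the only member called by edgeR (F 14.3, adjusted p 0.0433), where 6.46% of all genes tested were called. That F test was run on the replicate numbers of the labels, which are not said to mark a day or batch.

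SOD1, the cytosolic copper-zinc superoxide dismutase and the protein that CCS serves (Entrez 6647; chromosome 21, 31659693 to 31668930, plus strand), was at 405, 388 and 404 CPM in copper. The controls were at 391, 356 and 345 CPM. Only copper replicate 2 fell within the control range, just below control replicate 1. For SOD1 the log2 fold change was 0.13 (SE 0.09, interval -0.08 to 0.35, adjusted p 1.00 by edgeR), and the ratio was positive within all 3 replicate numbers, at 0.05, 0.13 and 0.23. A rise above 1.27-fold lay outside the interval. In replicates 1 and 2 alone the log2 fold change was 0.09, and with the block and each library's trend in transcript length removed it was 0.04.

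ATP7A, the copper ATPase of most tissues and the one mutated in Menkes disease (Entrez 538; chromosome X, 77910656 to 78050395, plus strand), was at 19.0, 17.4 and 10.8 CPM in copper. The controls were at 20.1, 19.4 and 23.1 CPM. All copper libraries lay below all controls, copper replicate 1 by a narrow margin and copper replicate 3 by far the most. Groups with no overlap and copper lower were found for 5.35% of all genes tested. For ATP7A the log2 fold change was -0.40 (SE 0.21, interval -0.89 to 0.08), with an unadjusted p of 0.0901 and an adjusted p of 1.00 by edgeR, or 0.593 with the replicate block. Within replicates 1, 2 and 3 the log2 ratio was -0.08, -0.15 and -1.09. In replicates 1 and 2 alone the log2 fold change was -0.12 with an adjusted p of 0.653, so the size of the difference came mainly from replicate 3.

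ATP7B, the ATPase of liver and some other epithelia that is mutated in Wilson disease (Entrez 540; chromosome 13, 51932671 to 52011450, minus strand), was at 24.0, 28.0 and 18.8 CPM in copper. It was at 25.5, 30.7 and 28.7 CPM in control. Copper replicate 2 lay above control replicate 1, so the groups overlapped, but each copper library was below the control of its own number. The log2 fold change was -0.26 (SE 0.16, interval -0.63 to 0.11, adjusted p 1.00 by edgeR). The log2 ratios within replicates were -0.09, -0.13 and -0.61, and the value in replicates 1 and 2 alone was -0.10.

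CUTC, a cytosolic copper-binding protein named after the bacterial copper homeostasis gene cutC (Entrez 51076; chromosome 10, 99732234 to 99756134, plus strand), was at 41.0, 38.3 and 45.8 CPM in copper. The controls were at 33.1, 30.2 and 36.6 CPM. All copper libraries lay above all controls, as for 5.45% of all genes tested, and the log2 ratio was 0.31, 0.34 and 0.32 within replicates 1, 2 and 3. Mean CUTC stood at 41.7 ± 3.80 CPM with copper and 33.3 ± 3.19 CPM without (SD, n = 3), a 1.25-fold difference that was not called. Its log2 fold change was 0.32 (SE 0.12, interval 0.06 to 0.60), with an unadjusted p of 0.0243 and an adjusted p of 1.00 by edgeR. With the replicate block the unadjusted p was 0.00415 and the adjusted p 0.325, and in replicates 1 and 2 alone the adjusted p was 0.110. The block without replicate 3 was the only fit that called it, with a log2 fold change of 0.32 and an adjusted p of 0.00460 by edgeR. That fit called 912 of 12966 genes tested. It used the same libraries as the 0.110 above, which had no block. It has few libraries for its terms, and pairing by number is not shown for replicates 1 and 2, so this call rests on little spread.

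COMMD1, which takes part in endosomal sorting of ATP7A and ATP7B (Entrez 150684; chromosome 2, 61888700 to 62141185, plus strand), was at 11.0, 10.9 and 13.7 CPM in copper. The controls were at 13.3, 10.5 and 10.9 CPM. The groups overlapped almost wholly. For COMMD1 the log2 fold change was 0.04 (SE 0.15, interval -0.32 to 0.40), and it was negative in replicates 1 and 2 alone (-0.12), and without copper replicate 3 (-0.08), control replicate 2 (-0.03) or control replicate 3 (-0.0052).

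**Figure D2:**
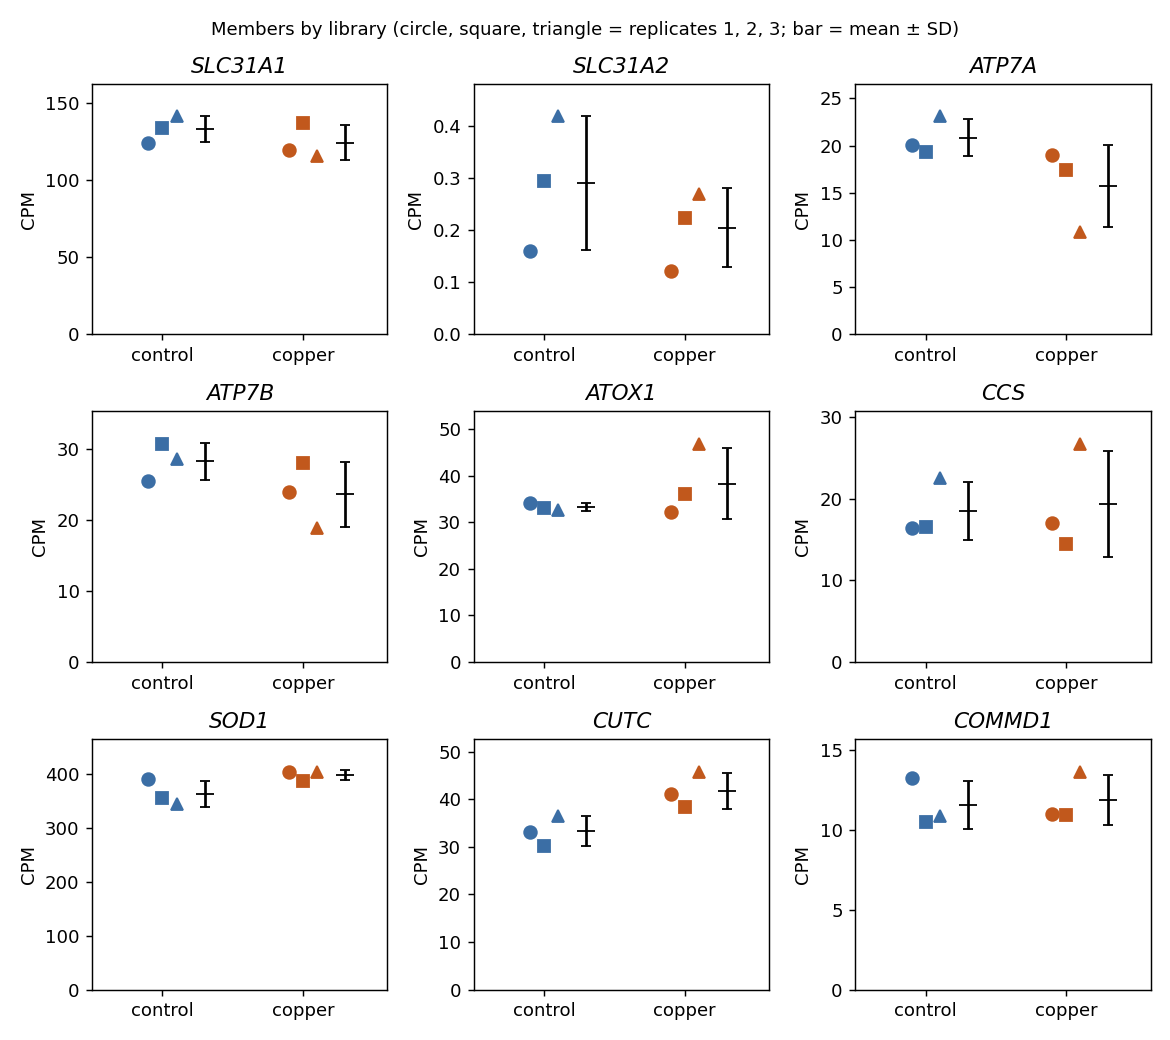
CPM of each member in control (blue) and copper (orange) libraries, with circles, squares and triangles for replicates 1, 2 and 3 and a bar for mean ± SD (n = 3). ATP7A in copper, at 10.8 to 19.0 CPM, lies below control and CUTC, at 38.3 to 45.8 CPM, above it, while the groups overlap for the other members.

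**Figure D3:**
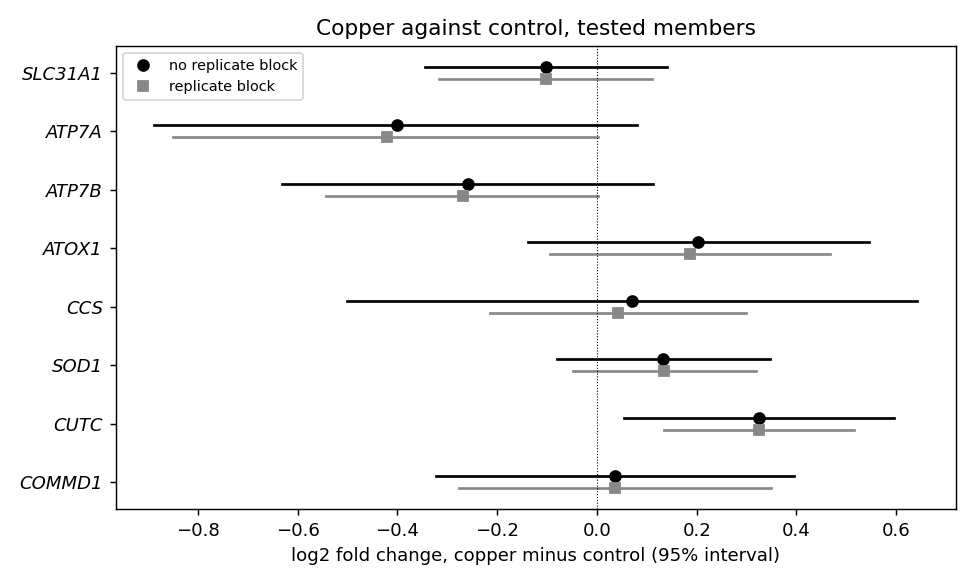
Log2 fold change of copper over control with its 95% interval for the 8 tested members, without (black circles) and with (grey squares) the replicate block. CUTC, from 0.06 to 0.60 without the block, is the only member whose interval leaves out 0, and its p is not adjusted in this plot.

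The members parted by transcript length in replicate 3. The 5 members with a positive log2 fold change have transcripts of 749 to 1430 bases, and SLC31A1, ATP7B and ATP7A, the 3 with a negative one, have transcripts of 4744, 6638 and 8483 bases. All tested genes were parted by transcript length into 5 bins of about equal size. In replicate 3 the median log2 ratio of copper over control went from 0.23 in the bin of the shortest transcripts to -0.26 in that of the longest. The trend lay mostly in the 1 library of copper replicate 3. Its median log2 ratio to the mean of copper replicates 1 and 2 went from 0.27 to -0.33 over these bins. For control replicate 3 against control replicates 1 and 2 it went from 0.07 to -0.07. In replicate 1 it went from 0.02 to -0.01, and in replicate 2 from 0.03 to 0.01. ATP7A, at -1.09 in replicate 3, lay further from 0 than the median of its bin, as did ATP7B at -0.61, and ATOX1, at 0.52, lay above the 0.23 of its own. In absolute size the log2 ratio was larger in replicate 3 than in replicates 1 and 2 for 7 of the 8 tested members, CUTC being the exception, against 58.7% of all genes tested. It had the same sign in all 3 replicate numbers for 4 of the 8, ATP7A, ATP7B, SOD1 and CUTC, against 34.7% of all genes tested.

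**Figure D4:**
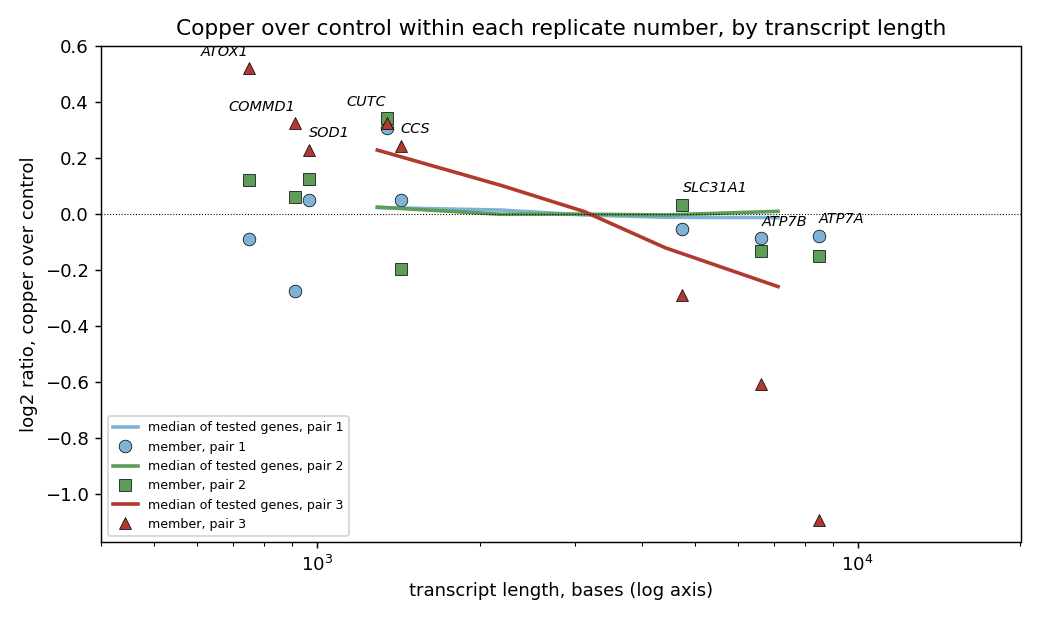
Log2 ratio of copper over control within replicate 1 (blue), 2 (green) and 3 (red), against transcript length on a log axis, with symbols for the tested members and lines joining the medians of all tested genes in 5 bins of length. The red line falls from 0.23 to -0.26 while the other lines stay near 0, and ATP7A lies below it at -1.09.

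With the block and each library's length trend removed, the log2 fold changes shrank for all 8 tested members except CCS and COMMD1, which became negative at -0.04 and -0.06. ATP7A was at -0.34 (unadjusted p 0.0322, adjusted p 0.457 by edgeR) and CUTC at 0.25 (unadjusted p 0.0148, adjusted p 0.346). That fit called 63 genes in all (0.489%) and 0 members.

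Genes with the most similar profile to a member were sought over the 6 libraries as the smallest root mean square difference in centred log2 CPM. For SLC31A1 the nearest were NORAD (0.0135), SLC35F5 (0.0263) and SEC14L1 (0.0271). SPG21 (0.0153), NDUFA9 (0.0176) and PSPH (0.0193) were nearest to SOD1. ATP7A had no neighbour as close, the nearest being LYSMD3 (0.0964), ZNF292 (0.0985) and EIF2S3B (0.0999). For ATOX1 the nearest were C16orf91 (0.0406), HOXA5 (0.0471) and TMEM147 (0.0473). ATP7A also varied most around its own mean, with a root mean square of 0.341. That of ATOX1 was 0.186, of SLC31A1 0.106 and of SOD1 0.0892, and the distances were not scaled to it. These are the nearest of 10283 candidates over few libraries that share replicate effects.

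The wider copper pathway was described with lists of genes written down by role. Among metallothioneins, 5 of 12 were tested. The log2 fold change was positive for all 5, and its median was 1.07. Without the block 0 were called, and with it 3 were called higher, MT2A, MT1X and MT1E, and 0 lower. The block called 0.17% of all genes tested. MT2A stood at 719 ± 85.9 CPM with copper and 343 ± 12.8 CPM without, 1.07 on the log2 scale (SE 0.11). For MT2A edgeR gave an adjusted p of 0.0843, or of 0.00516 with the replicate block. Because these genes are close copies of each other, reads may have been divided wrongly among them.

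Among 6 regulators and partners of the members, CLU was called higher with the replicate block (adjusted p 0.0387 by edgeR) and not without it (1.00). CLU encodes clusterin, a chaperone reported to bind the copper ATPases. It rose in that fit by 0.81 on the log2 scale (SE 0.11), and its means were 55.0 ± 14.0 CPM in control and 96.2 ± 18.1 CPM in copper (SD, n = 3). Its log2 ratios were 0.76, 0.63 and 1.07 within replicates 1, 2 and 3, and the groups did not overlap. No overlap with copper higher was found for 5.45% of all genes tested, and the block called 0.17% of them. The other 5 of the list were not called in either fit. Without the block MTF1, the metal-sensing factor, had a log2 fold change of -0.15, SP1 one of -0.17, XIAP, the ubiquitin ligase of COMMD1 and CCS, one of -0.11, DCTN4 one of -0.06 and the glutaredoxin GLRX one of 0.33. Within replicate 3 their log2 ratios were -0.27, -0.44, -0.34, -0.23 and 0.50.

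No member of the other 6 lists was called in either fit, and the values and smallest p below are those without the block. In mitochondrial copper delivery, the log2 fold change was positive for 7 of 8 tested genes, against 6657 of all 12944 genes tested. Its median was 0.08, and within replicates 1, 2 and 3 the median log2 ratio was 0.03, 0.10 and 0.21. The smallest p there was that of the assembly factor COA6 (0.28, SE 0.12, unadjusted p 0.0557 by edgeR). In the COMMD family and its CCC complex, the median of 12 tested genes was 0.13, and COMMD5 had the smallest p (0.26, SE 0.12), whereas with the block COMMD4 had it. Within replicates 1, 2 and 3 the median log2 ratio of this list was 0.12, -0.0070 and 0.26. The lists are not given with the length trend removed. In the secretory copper enzymes, which receive copper from the ATPases, 11 of 18 genes were tested with a median of 0.03. CP, which encodes the ferroxidase ceruloplasmin, had the smallest p there (0.67, SE 0.21, unadjusted p 0.0149, adjusted p 1.00 by edgeR). CP stood at 56.7 ± 17.7 CPM with copper and 35.7 ± 3.54 CPM without. The groups had no overlap with copper higher, as for 5.45% of all genes tested. In the AP-1, retromer and WASH sorting list the median of 15 genes was -0.0043, with the smallest p for WASHC3 (0.14, SE 0.12), whereas with the block WASHC4 had it. In the metalloreductases and the divalent metal importer it was -0.02 over 3 tested genes, with the smallest p for STEAP1 (0.21, SE 0.32). In superoxide and peroxide removal it was -0.0049 over SOD2, CAT and GPX1, the last with the smallest p (-0.10, SE 0.12).

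**Figure D5:**
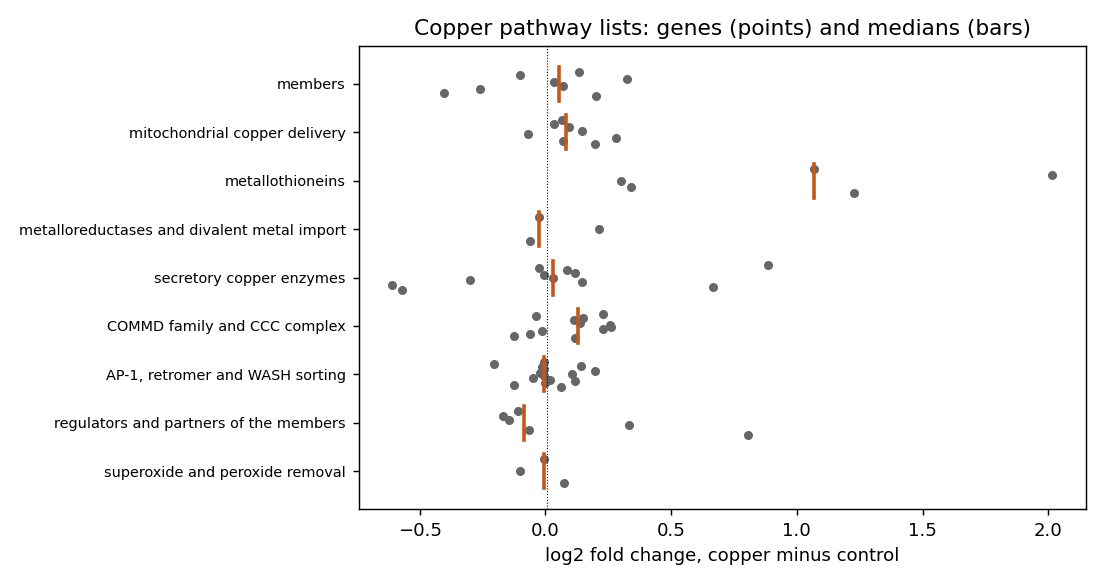
Log2 fold change of copper over control without the replicate block for each tested gene (points, spread vertically by name) and the median (orange bars) of the members and the 8 pathway lists, with a dotted line at the median of all genes tested. The metallothionein median of 1.07 lies to the right, and the other medians lie between -0.09 and 0.13.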

How the data were processed

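RNA was measured by directional RNA-seq of total RNA in 6 cultures, 3 with copper and 3 controls. The authors deposited a table of raw counts per gene. STAR, FastQC, edgeR and GRCh38 are named, per the submitters' processing notes, while the counting program, its use of strand and multiply matching reads are not given in the sources used here. Rows with no symbol (5 genes, 0.000814% of counts) were left out. Deposited starts count from 0, and 1 was added.

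The test was that of edgeR 4.0.16 under R 4.3.3 (filterByExpr, minimum count 10, minimum total 15; TMM; robust quasi-likelihood test; Benjamini-Hochberg over all tested genes, threshold 0.05; prior count 2). Intervals used the F and degrees of freedom of each gene. Scripts were tested on simulated data. The libraries differed within groups by more than sampling noise. Deviations from the mean of each group correlated between same-numbered libraries (0.46, 0.40 and 0.65 for replicates 1, 2 and 3 over 12944 genes). Replicate 3 stood apart in both groups and enters each group mean. The values for replicates 1 and 2 therefore do not show that those numbers are paired, and libraries of unlike number were not compared. The replicate block is given as an alternative where it changes a result. Transcript lengths were those of 1 GENCODE 29 transcript per gene, a principal one where annotated and otherwise another. A length was found for 99.5% of tested genes, and the length trend was a spline with 4 degrees of freedom. Alternatives were DESeq2 1.42.0, voom of limma 3.58.1, other scalings and filters, the block, and left-out libraries. Use of replicates 1 and 2 alone was added after seeing the data. The members, the lists and the rule for naming genes (every member, the smallest p of each list, and the 3 genes with at least 5 CPM nearest to each of 4 members) were chosen with earlier results of these data known. MT1X, MT1E, MTF1, SP1, XIAP, DCTN4, GLRX, COMMD4 and WASHC4 were named outside that rule, with their values known. Promoter sequences are from RefSeq, the start nearest the deposited one, and 7 of 9 members matched.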

Additional observations from a re-analysis of the deposited data

How the results depend on the processing

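The count of members called between copper and control was 0 under every alternative run but one. The replicate block without replicate 3 called 1, CUTC, so the fits of that block without 1 pair gave from 0 to 1 members. Those fits have few libraries for their terms, and pairing by number is not shown for replicates 1 and 2. Over all genes the count was 0 in the edgeR fit described above, which had no block. It was 22 with the replicate block and 63 when the length trend was removed as well. Other fits with no block gave 27 with DESeq2, 12 with no filter and 111 in replicates 1 and 2 alone. Leaving out 1 library gave 0 to 15 genes, with 15 without copper replicate 3, and the block without 1 pair gave 74, 77 and 912 without replicates 1, 2 and 3. The count between replicate numbers was 836, and 3109 with no filter and 1450 with DESeq2, while the member called was 1 in each. Why the counts differ was not tested.

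Of 152 log2 fold changes of single members under alternatives, 139 kept direction and call, 1 became called and 12 reversed, all of the latter CCS or COMMD1, whose values lie near 0. With the block and the length trend removed they were at -0.0363 and -0.0611, and in replicates 1 and 2 alone at -0.0702 and -0.125. Across fits that left out 1 library, CCS ranged from -0.232 to 0.240 and COMMD1 from -0.0805 to 0.143, and with the block and without 1 pair from -0.0680 to 0.151 and from -0.115 to 0.189. The lowest values were those without copper replicate 3 or without replicate 3. ATP7A ranged from -0.61 to -0.11 and CUTC from 0.25 to 0.40 over all alternatives. SLC31A2, with 2 to 8 counts, is limited by depth.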
